A study of Mus musculus with 4 samples.

Results

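The 8 genes described here write, read and remove methylation of cytosine in DNA. They are the methyltransferase genes Dnmt1, Dnmt3a and Dnmt3b, the gene Uhrf1, the oxidase genes Tet1, Tet2 and Tet3, and the reader gene Mbd2. The rule lists them by name and uses no measured value, though the choice was made with earlier results of these data known. All 8 were found among the 37646 genes of each count table. RNA came from sorted splenic B220+ YFP+ cells of C57BL/6 control mice with the genotype YFPstopF/+; Cg1Cre/+, in which a Cre driven from the Ighg1 locus switches on a YFP reporter. The mice were immunised with sheep red blood cells on a pair of occasions separated by 20 days, and their spleens were collected 10 days past the later one. The labels name these cells normal germinal centre B cells. The mark is permanent, so memory and plasma cells that descend from marked cells can carry it too. All 4 libraries form this 1 group, and the lymphoma samples that the design text mentions were not analysed here. Values are therefore compared between genes within a library and between libraries. Separate mice are not stated in the labels as the source of the libraries, so p-values measure only the spread between these samples, of which an unknown share may be technical.

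DNA methylation in mammals sits mostly on CpG dinucleotides. DNMT1 copies it to the new strand after replication, guided by UHRF1, which binds DNA methylated on the old strand alone. DNMT3A and DNMT3B place methyl groups on unmethylated DNA, TET enzymes oxidise them and so start their removal, and MBD2 binds methylated CpG and brings the NuRD repressor complex. In germinal centre B cells, which divide fast, mice with reduced DNMT1 activity form poor germinal centres, and loss of TET2 in mice leads to enlarged ones. TET2 is among the genes mutated in human diffuse large B cell lymphoma.

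Promoter sequences are shown for Dnmt1 and Uhrf1, whose profiles over the libraries lay close to those of replication genes, and for Tet2, which had the window richest in CpG. Windows of 300 bases, from 250 before to 50 after an annotated start, came from RefSeq (GRCm38.p6) for 7 of the 8 genes, 12 windows in all. In the first 3 sequences capitals mark matches to an E2F-type motif, searched on both strands in 4 forms that differ only in their middle letters. These were TTCCCGC and the form TTGGCGC, besides the form TTCGCGC and lastly TTGCCGC, and E2F factors are known to drive S phase genes. In the Tet2 sequence, capitals mark CpG.
Dnmt1, window 3, chr9:20952574-20952873, minus strand: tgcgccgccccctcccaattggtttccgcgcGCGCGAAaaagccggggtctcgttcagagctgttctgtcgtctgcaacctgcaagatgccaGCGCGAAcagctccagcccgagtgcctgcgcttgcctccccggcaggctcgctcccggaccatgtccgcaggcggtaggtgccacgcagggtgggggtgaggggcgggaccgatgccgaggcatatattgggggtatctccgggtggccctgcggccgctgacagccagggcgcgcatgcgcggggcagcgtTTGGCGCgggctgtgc
Uhrf1, window 1, chr17:56303087-56303386, plus strand: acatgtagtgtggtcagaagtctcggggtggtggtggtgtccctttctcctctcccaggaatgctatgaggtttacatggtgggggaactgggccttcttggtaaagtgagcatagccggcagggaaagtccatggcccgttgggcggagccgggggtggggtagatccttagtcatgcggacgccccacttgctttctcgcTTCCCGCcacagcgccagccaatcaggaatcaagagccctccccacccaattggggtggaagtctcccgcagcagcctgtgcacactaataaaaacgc
Uhrf1, window 2, chr17:56304063-56304362, plus strand: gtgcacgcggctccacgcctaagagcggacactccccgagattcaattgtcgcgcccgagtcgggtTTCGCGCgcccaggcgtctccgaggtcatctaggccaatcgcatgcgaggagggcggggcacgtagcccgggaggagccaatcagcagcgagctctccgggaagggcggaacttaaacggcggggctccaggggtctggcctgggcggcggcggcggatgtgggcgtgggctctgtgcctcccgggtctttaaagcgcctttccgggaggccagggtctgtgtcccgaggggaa
Tet2, chr3:133544341-133544640, minus strand: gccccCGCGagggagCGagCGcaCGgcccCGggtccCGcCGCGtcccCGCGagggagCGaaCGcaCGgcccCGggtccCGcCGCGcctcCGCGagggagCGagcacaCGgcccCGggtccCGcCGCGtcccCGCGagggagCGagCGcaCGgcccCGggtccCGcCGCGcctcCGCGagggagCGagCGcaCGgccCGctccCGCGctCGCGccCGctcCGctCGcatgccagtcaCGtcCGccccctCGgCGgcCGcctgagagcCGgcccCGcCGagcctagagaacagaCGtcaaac

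Matches to the motif stood in 3 of the 12 windows, those printed for Dnmt1 and Uhrf1. The third Dnmt1 window held 3 matches, the most of the 12 windows. They began 219 and 158 bases upstream and 34 bases downstream of its own start. That start, at 20952623 on the minus strand, lies inside the gene, downstream of the other starts at 20959888 and 20952979. The whole window lies downstream of those starts, so upstream here refers to the third start alone. Over all windows, 0.131% held 3 or more matches. Each motif form contains a CpG, and that share was not taken among windows as rich in CpG as this one, which held 33. The first Uhrf1 window held TTCCCGC 48 bases upstream, and the second held TTCGCGC 184 bases upstream. No match was found in the windows of Dnmt3a, Dnmt3b, Tet1, Tet2 and Tet3 or in the other 2 of Dnmt1. Of all 32817 windows, 9.57% held at least 1 match, and 25.4% did among the 3834 windows with at least 30 CpG. A match is a run of letters and was not tested as a binding site.

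The windows of the genes differed widely in CpG. The Tet2 window held 57 CpG, more than 99.8% of all windows, whose median was 7. Dnmt3a had 46 and 47 in the windows at its upstream starts and 18 at the internal start. Dnmt3b held 30, Tet3 22 and Tet1 17. The 3 starts of Dnmt1 ran from 2 CpG at the most upstream, through 12, to 33 at the most downstream, and those of Uhrf1 held 12 and 33. Counts were made per gene, so RNA from one start could not be told from RNA of another.

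**Figure D1:**
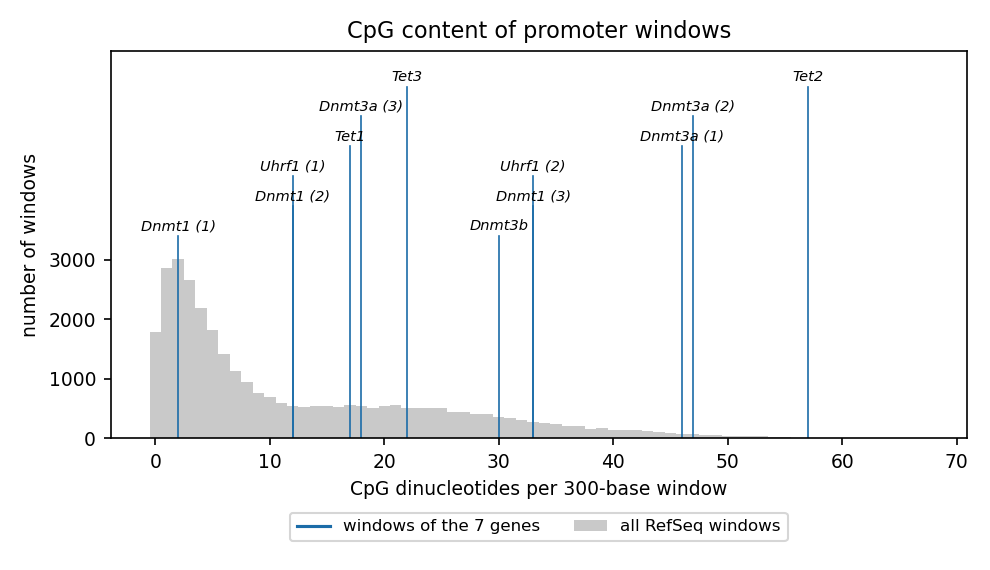
Number of RefSeq promoter windows (grey bars, y axis) by CpG dinucleotides per 300-base window (x axis), with blue lines at the windows of 7 genes, their height having no meaning. Numbers in brackets give the window where a gene has several. The lines run from 2 CpG at the first Dnmt1 window to 57 at Tet2.

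Totals ran from 13777954 to 14629025 counts a library. All 10 germinal centre markers, among them Bcl6 and S1pr2, exceeded 1 TPM (a unit that scales counts per gene length to the same sum in every library) in every library. Transcripts of other cells were present. All 8 naive and memory B markers, all 6 plasma cell markers, all 10 T cell markers and all 5 NK cell markers exceeded 1 TPM in every library, as did 8 of 10 myeloid and 3 of 6 erythroid and platelet markers. Summed marker levels ran from 1369 to 2366 TPM for germinal centre, 1543 to 2752 for naive and memory, 954 to 1932 for plasma, 199 to 507 for T cell, 195 to 366 for myeloid, 44.6 to 107 for NK and 70.9 to 202 for erythroid and platelet genes. The naive and memory sum was above the germinal centre sum in library 2 (2752 against 1369 TPM) and library 4 (2054 against 1747), and below it in libraries 1 and 3. No marker was at 0 in all libraries, although Elane was at 0 in libraries 1 and 3. Dnmt3a, Tet2 and Tet3 are known to be expressed in T and myeloid cells as well, and the part of such cells in their levels was not tested. Library 3 alone had Y-linked RNA (Ddx3y at 1307 counts, at most 3 elsewhere) and nearly no Xist, so it held RNA of a male source that the other libraries lacked, and sex cannot be told apart from other features of that library. In bulk RNA, fewer cells with a transcript and less of it per cell cannot be told apart.

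The genes fell into 3 tiers. Mbd2, Dnmt1 and Uhrf1 were abundant, Tet3, Dnmt3a, Tet2 and Dnmt3b were lower, and Tet1 lay below 1 TPM in every library. Every library gave more than 1 TPM for 7 of the 8 genes, all but Tet1, against 53.3% of 18712 protein-coding genes and 30.8% of all genes with a length. Between genes, levels are given in TPM. Between libraries, they are given as CPM, each count divided by the total of its library and scaled alike in all, which does not depend on gene length. Among genes with a mean of at least 1 CPM, 44.8% lay below Tet3 by TPM and 19.6% below Dnmt3b. The gap between tiers depended on length, as Uhrf1 minus Tet3 was 3.08 log2 in TPM and 1.11 in CPM.

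The maintenance pair was expressed at high level. Dnmt1 (chromosome 9, 20907209 to 20959888, mm10, minus strand) stood at 150, 122, 213 and 153 TPM in libraries 1 to 4, a mean of 159 ± 38.2 (SD, n = 4, as for all means here). Only 507 of 12468 expressed genes (mean of at least 1 CPM) lay above it. Uhrf1 (chromosome 17, 56303321 to 56323486, plus strand) stood at 91.1, 66.5, 110 and 83.5 TPM, a mean of 87.8 ± 18.03. For both genes library 3 was highest and library 2 lowest. Uhrf1 lay below Dnmt1 in 4 of 4 libraries, with a difference of -0.85 ± 0.10 on the log2 TPM scale. The ratio of Dnmt1 to Uhrf1 was thereby nearly constant, from 1.65 to 1.93, although each gene differed by more than 1.4-fold between libraries. A steady ratio was not particular to this pair, as that of Dnmt3a to Tet2 ran from 1.52 to 1.75. The two-sided exact sign-flip permutation test gave p = 0.13 for Uhrf1 against Dnmt1 and for each other difference by role (adjusted p = 0.13 over 6 differences). This p is rounded and the smallest that 4 libraries allow, so that no such difference could reach 0.05.

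The de novo methyltransferase genes made up a small part of methyltransferase RNA. Dnmt3a (chromosome 12, 3806007 to 3914443, plus strand) stood at 4.83, 6.32, 6.86 and 7.25 TPM, a mean of 6.31 ± 1.06, with library 1 lowest. Dnmt3b (chromosome 2, 153649450 to 153687730, plus strand) stood at 3.10, 2.46, 2.32 and 3.34 TPM, a mean of 2.81 ± 0.49, on only 70 to 108 counts per library. Dnmt1 exceeded the sum of both 17.2-fold (4.11 ± 0.35 log2, 13.9 to 23.2-fold by library, 4 of 4 libraries; exact sign-flip p = 0.13). Dnmt1 held 94.4% ± 1.23 of the TPM of the 3 genes, Dnmt3a 3.85% ± 0.92 and Dnmt3b 1.73% ± 0.46. Dnmt3a exceeded Dnmt3b 2.25-fold (1.17 ± 0.40 log2), from 1.56-fold in library 1 to 2.95-fold in library 3.

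Tet3 was the main TET transcript. Tet3 (chromosome 6, 83362373 to 83459084, minus strand) stood at 10.8, 8.83, 10.6 and 10.8 TPM, a mean of 10.3 ± 0.96. Tet2 (chromosome 3, 133463679 to 133545139, minus strand) stood at 3.15, 3.62, 4.11 and 4.75 TPM, a mean of 3.91 ± 0.69. Tet1 (chromosome 10, 62804570 to 62908996, minus strand) stood at 0.281, 0.376, 0.208 and 0.490 TPM, a mean of 0.339 ± 0.122, from 28, 38, 19 and 48 counts. Tet3 held 70.8% ± 3.72 of TET TPM, Tet2 26.9% ± 3.27 and Tet1 2.34% ± 0.79. Tet2 lay below Tet3 in 4 of 4 libraries, a difference of -1.41 ± 0.26 log2, and Tet3 above Tet1 in 4 of 4 by 4.99 ± 0.58 log2. The low Tet1 count bears on its own spread. Its lowest library, library 3, gave 1.30 CPM (exact 95% Poisson interval 0.782 to 2.03). Its highest, library 4, gave 3.35 CPM (2.47 to 4.45), and these intervals did not overlap. The same held between the lowest and highest library of every other member, such as Dnmt3b (3.73 to 6.05 CPM in library 3, 6.19 to 9.11 in library 4). The share of all genes with such a gap was not counted. Over the genes compared, pairs of libraries also differed by more than sampling noise (median chi-square 2.79 to 6.05, against 0.455 from sampling). The lowest and highest libraries were picked by these same values, so nothing particular to the members is read from the gaps. All these intervals cover counting error alone, as the labels name no molecular identifiers.

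TET transcripts together were far less abundant than methyltransferase transcripts. The 3 TET genes summed to 14.2, 12.8, 14.9 and 16.1 TPM and the 3 methyltransferase genes to 158, 130, 222 and 164 TPM. The TET sum was lower in 4 of 4 libraries, a difference of -3.52 ± 0.26 log2 (exact sign-flip p = 0.13). Against the de novo genes alone, at 9.12 ± 1.11 TPM, the TET sum of 14.5 ± 1.36 TPM was the higher.

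Mbd2 (chromosome 18, 70568189 to 70626131, plus strand) had the highest mean of the 8 genes. It stood at 193, 102, 204 and 167 TPM, a mean of 167 ± 45.8, with 476 of 12468 expressed genes above it. Library 2 was well below the others. Per union exon length, Mbd2 and Dnmt1 did not differ beyond their spread: the difference was 0.04 ± 0.26 log2 and positive in 2 of 4 libraries (exact sign-flip p = 0.75). Without gene length the order turned, with Mbd2 at 235 ± 56.4 CPM and Dnmt1 at 516 ± 85.8 CPM, a difference of -1.15 log2. With the longest transcript as length the difference was 0.43 ± 0.26 log2 (exact sign-flip p = 0.13, the smallest possible), so the order of this pair depends on the length used. The rest of the order was Uhrf1, Tet3, Dnmt3a, Tet2, Dnmt3b and Tet1, and each neighbour lay above the next in 4 of 4 libraries (exact sign-flip p = 0.13 for each, adjusted p = 0.146 over 7 pairs). The order was taken from these same values. The direction of each mean difference was thus fixed beforehand, and the p-values do not test the order. Apart from Mbd2 and Dnmt1, the closest neighbours per union exon length were Tet2 and Dnmt3b, at 0.48 ± 0.33 log2 and only 0.02 in library 1. They differed by 1.11 log2 with the longest transcript as length, where Tet3 and Dnmt3a were closest at 0.55.

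**Figure D2:**
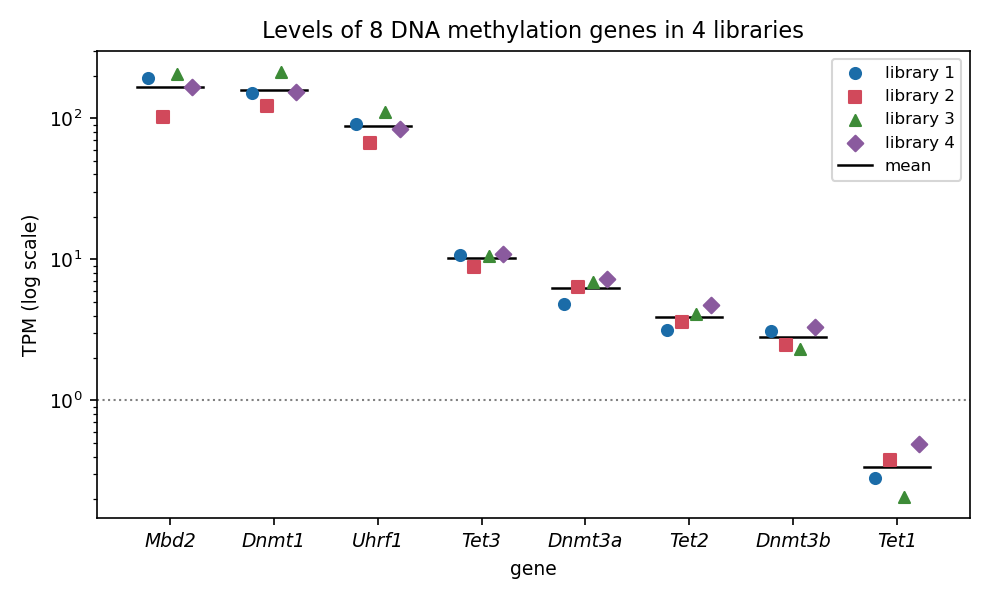
TPM on a log axis (y) of the 8 genes (x), with 1 symbol per library and a black line at the mean of the 4 libraries. The dotted line marks 1 TPM. Mbd2, Dnmt1 and Uhrf1 sit above 60 TPM in every library and Tet1 below 0.5 TPM.

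Few reads were assigned to genes that overlap the members. The antisense transcript Dnmt3aos overlaps exons of Dnmt3a by 133 bases and had 0 to 7 counts, and Gm42567 overlaps exons of Tet2 by 43 bases and had 0 to 2 counts. Use of strand in counting was not given in the sources used here, so reads within the overlaps cannot be assigned by strand. The pseudogene Dnmt3a-ps1 had 0 counts in every library.

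The libraries were next compared for each gene, to see whether any of the 8 varied more than genes of its level. Counting error gave a coefficient of variation (CV) of 1.17% for Dnmt1 and up to 17.3% for Tet1, and each gene varied by more than its own. The observed CV of CPM was 16.6% for Dnmt1, 14.5% for Uhrf1, 15.4% for Dnmt3a, 19.9% for Dnmt3b, 16.03% for Tet2, 38.2% for Tet1 and 24.0% for Mbd2. Tet3 was the steadiest, at 8.18%, from 70.0 to 82.4 CPM, where genes of a similar level had a median of 12.6%. For Mbd2 genes of a similar level had a median of 13.1%. That median was 14.1% for Dnmt1, 12.7% for Uhrf1, 12.9% for Dnmt3a, 13.7% for Tet2 and 32.2% for Tet1. For Dnmt3b it was 22.8%, above the CV of the gene itself.

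None of the 8 genes passed the test of variation at an adjusted p of 0.05, where 0.00835% of 11982 genes did, and none had an unadjusted p under 0.05, where 4.97% did (edgeR quasi-likelihood, upper tail). The nearest was Mbd2, whose dispersion was 3.86 times the trend (unadjusted p = 0.0913, adjusted p = 0.990 by edgeR). Its CPM was 283, 156, 265 and 238 in libraries 1 to 4, and it was the 1 gene of the 8 whose unadjusted p went under 0.05 in any setting (0.0449 without library 3, edgeR adjusted p = 0.985). Without library 2 its dispersion was 0.88 times the trend, so the excess rests on that library. Tet1 followed at 1.96 times the trend and Tet3 was lowest at 0.35 times. The median of the 8 genes was 1.11 times, against 0.895 over all genes tested. DESeq2 and limma-voom marked none of the 8 either. Among the cell markers, an unadjusted p under 0.05 was found for 10 of 10 T cell, 4 of 10 germinal centre, 4 of 8 naive and memory B and 4 of 5 tested plasma cell genes, and none of these passed with adjustment. Their part in the levels of the 8 genes was not tested. A p above the threshold does not show that the genes were equal between libraries.

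Dnmt1 and Uhrf1 had profiles close to that of the replication genes. The median of 14 S phase genes, such as Mcm5, Pcna and Rrm1, deviated from its mean by 0.02, -0.35, 0.23 and 0.09 log2 CPM in libraries 1 to 4. Dnmt1 deviated by -0.01, -0.26, 0.31 and -0.03, and Uhrf1 by 0.12, -0.28, 0.21 and -0.05. Both were low in library 2 and high in library 3, as the list was. Library 2 also had the lowest summed germinal centre markers (1369 TPM) and the highest naive and memory markers (2752 TPM), and a link was not tested. With the S phase median taken off within each library, the SD of Dnmt1 was 0.10 log2 and that of Uhrf1 0.11, against 0.23 and 0.22 as measured, ratios of 0.41 and 0.49. Without library 3 the change in the SD of Dnmt1 was -0.039 and without library 2 that of Uhrf1 was -0.016, smaller than the -0.14 and -0.11 over all 4, so their size rests on those libraries. The change for Uhrf1 was -0.072 without library 3, and -0.066 with TMM-scaled CPM, a setting added after the values were seen.

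Mbd2 was also low in library 2, at -0.56, and its SD with the S phase median taken off was 0.21, against 0.39 as measured, a ratio of 0.53. Its ratio was 0.42 with the mean of the list and 0.26 without library 1, while without library 2 the change turned to 0.053. For Dnmt3a the SD was 0.37 with the median taken off, against 0.23 as measured, for Dnmt3b 0.42 against 0.30, for Tet1 0.76 against 0.60 and for Tet2 0.33 against 0.23. The change turned to -0.023 without library 2 for Dnmt3a and to -0.13 without library 3 for Dnmt3b. For Tet3 the SD was 0.24 against 0.12, but the S phase median itself had an SD of 0.25, so that an increase was fixed for a gene as steady as Tet3 whatever its profile. Without library 3 the change for Tet3 was -0.0057.

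Of the 6 members of at least 10 CPM, 3 had a smaller SD with the S phase median taken off, against 34.0% of 8329 genes of that level outside the S phase list. A ratio of at most 0.5 was seen for 2 of the 6, Dnmt1 and Uhrf1, against 9.39% of those genes. This count depended on the setting. It was 3 of 6 with the mean of the list and without library 1, 2 of 6 without library 4, and 0 of 6 with TMM-scaled CPM and without library 2 or library 3. With TMM-scaled CPM the ratio was 0.501 for Dnmt1 and 0.62 for Uhrf1. No test was made of these spreads.

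**Figure D3:**
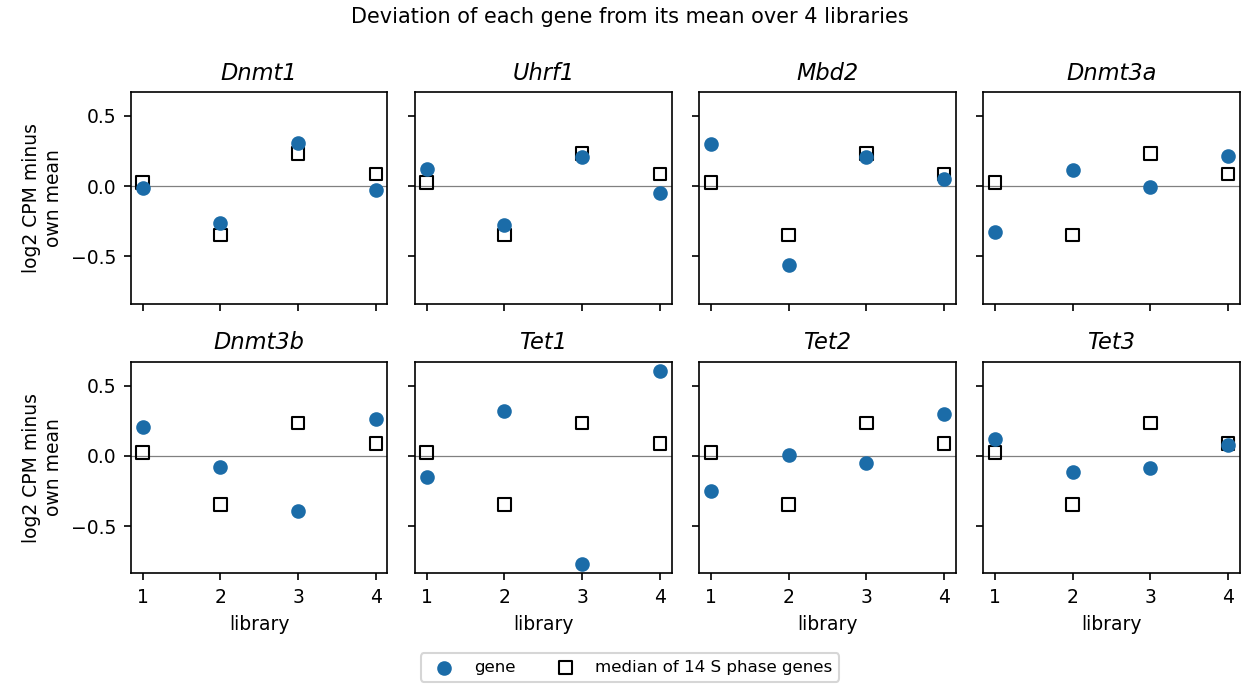
Deviation of log2 CPM from the gene's own mean (y axis) in libraries 1 to 4 (x axis) for each gene (blue circles), with the median of 14 S phase genes repeated in each panel (open squares). Dnmt1 and Uhrf1 lie near the squares, with -0.26 and -0.28 in library 2, and Tet1 lies far from them, at -0.77 in library 3.

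**Figure D4:**
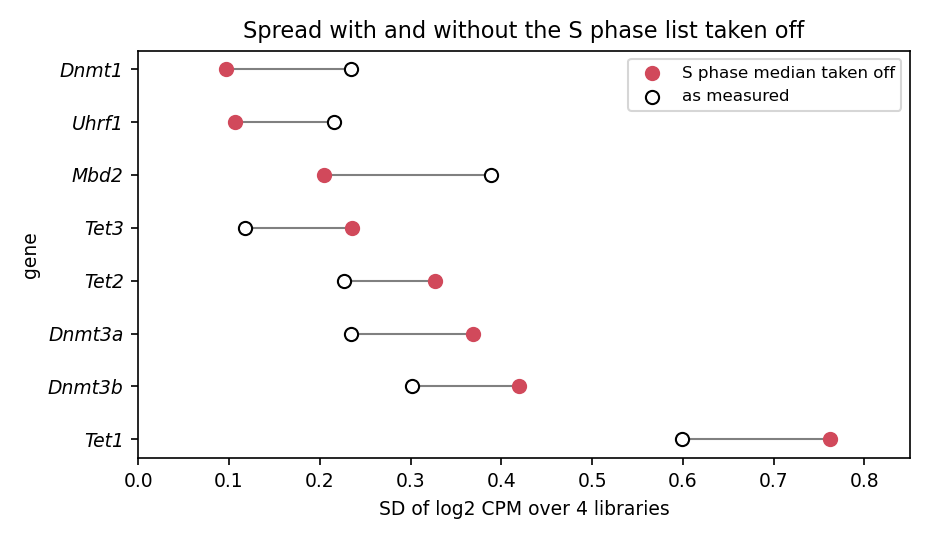
SD over 4 libraries of log2 CPM (x axis) for each gene (y axis), with the S phase median taken off within each library (red) and as measured (open). Red lies left of the open circle for Dnmt1, Uhrf1 and Mbd2 and right of it for the other 5 genes.

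Other lists were taken off in the same way, a step added after the values were seen. A smaller SD was not particular to the replication list. With the median of the NuRD subunit genes taken off, the SD was 0.14 for Dnmt1, 0.17 for Uhrf1, 0.34 for Mbd2, 0.21 for Tet2 and 0.230 for Dnmt3a, against 0.23, 0.22, 0.39, 0.23 and 0.234 as measured, and larger for the other 3. With the plasma cell list taken off it was 0.30 for Tet1, against 0.60 as measured, and with the myeloid list 0.589, against 0.599. The plasma list and Tet1 were both lowest in library 3. With the germinal centre list taken off it was 0.28 for Mbd2, against 0.39 as measured. The T cell and myeloid medians had SDs of 0.69 and 0.81, above those of all 8 genes, so nothing is read from the larger SDs that they gave.

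The genes with profiles most like each member were sought among 8342 or 8343 genes of at least 10 CPM, by the root mean square difference of centred log2 CPM over 4 libraries. For Dnmt1 these were E2f4, a transcription factor gene of the E2F family, at 0.0054, Ssrp1, a subunit gene of the histone chaperone FACT, at 0.012, and Cbll1 at 0.016. For Uhrf1 they were Mapk3 at 0.0081, Ckap5, a microtubule-binding protein gene, at 0.0089, and Plekhj1 at 0.013. With 4 points such closeness is common: 687 genes lay within 0.1 of Dnmt1 and 825 of Uhrf1. Uhrf1 itself ranked 396th for Dnmt1, at 0.083.

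Dnmt3a and Tet2 had similar profiles to each other, at a distance of 0.083. Both were lowest in library 1 and highest in library 4. Dnmt3a had 36.8, 49.9, 46.0 and 53.4 CPM and Tet2 had 24.3, 29.0, 27.96 and 35.5 CPM. Tet2 ranked 74th for Dnmt3a and Dnmt3a 59th for Tet2. The nearest genes to Dnmt3a were Mynn, Mppe1 and Marcks (0.020 to 0.033), and those to Tet2 were Dnajc25, the interferon regulatory factor gene Irf7 and Trmu (0.028 to 0.030).

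For the others, Slc44a1, Sema4a and Mbnl2 were nearest to Dnmt3b (0.018 to 0.037), Bckdk, Adcy3 and Pgrmc2 to Tet3 (0.0045 to 0.013), and Tpd52, Prkd3 and Dstn to Mbd2 (0.020 to 0.026). No gene lay within 0.1 of Tet1. Its nearest were Igkv10-96, a kappa V segment, at 0.104, the histone demethylase gene Kdm5b at 0.147 and Ighv14-2, a heavy chain V segment, at 0.147.

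The remaining genes of the pathway were read from lists. Of 3 further methyltransferase family genes, Trdmt1, which methylates transfer RNA, stood at 3.38 ± 0.89 TPM, the DNMT3 cofactor gene Dnmt3l at 0.105 ± 0.093 TPM, and Dnmt3c, known for its role in the male germ line, at 0 counts in all libraries, which allows up to 3 counts or 0.205 to 0.218 CPM. Of 8 partners of maintenance, 6 exceeded 1 TPM in every library. They were led by the replication clamp gene Pcna (150 ± 28.9), the DNA ligase gene Lig1 (131 ± 35.1) and Usp7, a deubiquitinase gene whose product binds DNMT1 and UHRF1 (113 ± 34.1). Dppa3, which in oocytes keeps UHRF1 from chromatin, had 1 count in library 2 and 0 in the others.

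All 9 genes of the MBD family and of zinc finger readers listed exceeded 1 TPM in every library. Some of them, such as Mbd3, Mbd5 and Mbd6, belong to the family by sequence, and their products are not known as readers of methylated CpG. Mbd3, the relative of Mbd2 in NuRD, stood at 140 ± 22.3, Mbd6 at 70.5 ± 10.4, Mbd1 at 27.0 ± 3.18 and Mbd5, the lowest, at 1.55 ± 0.18. Of the subunit genes of NuRD, the complex that MBD2 recruits, 12 of 12 exceeded 1 TPM in every library, led by Mta2 (183 ± 38.3), the remodeller gene Chd4 (170 ± 28.3) and Rbbp7 (143 ± 26.0), down to Gatad2b (21.1 ± 3.21). The list shares Mbd3 with the MBD family list.

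Partners of active demethylation numbered 12, of which 10 exceeded 1 TPM in every library. Gadd45b, a stress-induced gene, led at 224 ± 48.3, followed by the repair genes Parp1 (163 ± 29.3) and Xrcc1 (133 ± 39.7). Tdg, the glycosylase gene that excises the products of TET oxidation, was low, at 1.91, 2.33, 3.85 and 3.99 TPM. It was named after its value was seen. Cxxc4 was lowest, at 0.055 ± 0.050. All 9 genes of cofactor supply were expressed, led by Mat2a (48.8 ± 2.91), which makes the methyl donor, Idh2 (37.5 ± 2.83), which makes the TET cosubstrate, and Mat2b (24.7 ± 4.18). Of the writers of the H3K36 methylation that DNMT3 enzymes read, 3 were listed, Setd2 (57.9 ± 12.9), Nsd2 (27.9 ± 5.83) and Nsd1 (26.0 ± 2.64).

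None of the genes of these 7 lists passed the test of variation. The median dispersion ran from 0.48 times the trend for NuRD subunits to 1.77 times for demethylation partners, against 0.895 over all genes tested. An unadjusted p under 0.05 was found for 2 of those 9 genes, Zbtb4 and Mbd4, and for 2 of 11 tested demethylation genes, Mbd4 again and Gadd45a, against 4.97% of all genes. Mbd4, a glycosylase and reader gene, had 40.6, 17.6, 25.01 and 20.4 TPM, and was highest in library 1 (adjusted p = 0.771 by edgeR). Zbtb4 was also highest in library 1, with 19.8, 12.8, 9.52 and 9.66 TPM (adjusted p = 0.720 by edgeR). Gadd45a was highest in library 3, with 18.4, 20.7, 52.1 and 34.3 TPM (adjusted p = 0.962 by edgeR).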

How the data were processed

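Poly(A)-selected RNA of 4 libraries was sequenced single-end (SE50, DNBseq), per the labels. The authors deposited raw counts of reads for each gene, in a table per library. The submitters' processing notes name mm10, featureCounts 1.6.0, STAR 2.5.2b and FastQC. Not given in the sources used here were annotation release, strand setting and handling of multi-mapping reads.

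The 8 genes and all gene lists were chosen with earlier results of these data known. CPM used total counts. TPM used union exon lengths from GENCODE M21 (GRCm38, named mm10), which covered 37536 of 37646 identifiers. Differences were taken within libraries and tested by two-sided exact sign-flip permutation with Benjamini-Hochberg adjustment. The test of variation ran in R 4.3.3 with edgeR 4.0.16 (low counts filtered by filterByExpr, TMM, intercept-only glmQLFit, upper tail of F, Benjamini-Hochberg over 11982 genes), after a check on simulated counts. DESeq2 1.42.0 and limma 3.58.1 were alternatives, beside other normalisation, filters, gene lengths, a pseudocount of 1 and each library left out. Other steps used scipy 1.17.1 under Python 3.11.15. Named were the 8 genes, the 3 highest and the lowest of each pathway list, those with an unadjusted variation p under 0.05, and the 3 nearest profiles, apart from genes that are not reported here. Pairs of libraries differed by more than sampling noise. With 1 group, no comparison between conditions was made.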

Additional observations from a re-analysis of the deposited data

Results flagged for a closer look

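In sets of 4 values, 1 library stood apart from the other 3 by Dixon's criterion in 5 of 83 sets, and chance alone flags about 1 in 20. Tet3 was 8.83 TPM in library 2 and 10.6 to 10.8 in the others. In CPM, the measure used here between libraries, Tet3 was not flagged, with 70.0 in library 2 and 71.4 in library 3. The Dnmt3b share of methyltransferase TPM was 1.05% in library 3 and 1.88 to 2.04% in the others. The summed plasma cell markers were 954 TPM in library 3 and 1788 to 1932 in the others. Setd2 was 77.0 TPM in library 3 and 49.0 to 52.9 in the others. Dppa3 was 0.171 TPM in library 2, which is 1 count, and 0 in the others, a set that this criterion flags whatever the size of the value.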

How the results depend on the processing

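The 6 differences by role and 6 of the 7 differences between neighbours kept their direction with the longest transcript as length, without length, with log2(TPM + 1) and without each library. Sizes moved with length: without it, the log2 difference was 3.28 for Dnmt1 minus Dnmt3a+Dnmt3b, -1.65 for Uhrf1 minus Dnmt1, 2.88 for Dnmt3a minus Dnmt3b, -2.40 for the TET minus the methyltransferase sum, 1.11 for Uhrf1 minus Tet3, 2.20 for Tet2 minus Dnmt3b and 1.51 for Dnmt3b minus Tet1. The exception in direction, Mbd2 minus Dnmt1, was 0.43 with the longest transcript, -1.15 without length and -0.061 to 0.14 without 1 library. Genes passing the test of variation numbered 1, against 262 without a filter, 63 with the robust option, 0 with limma-voom (599 at an unadjusted p under 0.05), 159 dispersion outliers with DESeq2 and 0 to 19 without 1 library (0 without library 2, 19 without library 3, 3 without library 4). None of the 8 genes was among them, with adjusted p of at least 0.911 in every setting. The change in SD with the S phase median taken off was, without 1 library, -0.22 to -0.039 for Dnmt1, -0.20 to -0.016 for Uhrf1, -0.30 to 0.053 for Mbd2, -0.023 to 0.24 for Dnmt3a, -0.13 to 0.19 for Dnmt3b, 0.068 to 0.29 for Tet1, 0.0042 to 0.23 for Tet2 and -0.0057 to 0.17 for Tet3. It was -0.066 for Uhrf1 with TMM scaling, an alternative added after the data were seen, and 0.15 for Tet2 with the list mean. The cause of these changes was not tested. Longest transcripts gave 237 TPM for Mbd2, 13.6 for Tet3, 9.39 for Dnmt3a and 6.21 for Tet2. No paired analysis was possible because there is 1 group, so no groups could be paired by number; differences between genes were taken within libraries. Depth limits Tet1 and Dnmt3b, at 19 to 108 counts.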
